A study of Salmo salar with 79 samples.

Results

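The genes described here are those of cell division: the helicase and polymerases that copy DNA, the proteins that condense and separate chromosomes, the kinases and kinase inhibitors that time the cycle, and histones and other chromatin proteins. Of the 14841 salmonid probes on the array, 33 carried the categories Cell cycle (13 probes), Cell DNA replication (12) or Cell chromosome (8) in the list of 771 identifiers that the study drew up from these same arrays, and all 33 were taken. That list had been picked for differences between high fish density (HFD) and control fish at the same day, so that the HFD and control difference of these probes is described below without a test. What the choice did not use directly is the course of the wound itself, averaged over both densities. This means wounded skin against intact skin, and each day against the day sampled before it. The study reports that density changed the size of the responses of its listed genes but not their direction. Whether a list picked in this way favours probes that respond to wounding was not tested. The shares over all probes given below are not from probes picked in the same way.

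The skin came from Atlantic salmon post-smolts in seawater, stocked at 100 kg/m3 (HFD) or at 20 kg/m3 (control) per the labels. The study did not adjust the biomass, and by its methods the density rose above the label in HFD and fell over time in control. Each treatment was in 1 tank, so that tank and treatment cannot be told apart. Wounds were made with a 5 mm biopsy punch, and RNA was taken from a part of the wound of 5 HFD and 5 control fish per day. The first days post wounding (dpw) were 1, 3, 7 and 14, and 36, 43 and 57 dpw came later. Intact skin came from 4 HFD and 4 control fish sampled before wounding, and different fish were sampled at each day. The labels give no other treatment or genotype.

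Before a cell divides it copies its genome in S phase and then separates the copies in mitosis. The mcm proteins form a ring-shaped helicase that is loaded at replication origins and is switched on together with the GINS complex, after which primase, the DNA polymerases and the sliding clamp PCNA make the new strands. Condensin, the spindle checkpoint, the chromosomal passenger complex and cdk1 act later, at entry into and passage through mitosis, and their transcripts usually peak after those of the replication genes. In fish skin the keratocytes of the epidermis spread over a wound within hours, and dividing cells in the epidermis and dermis then supply new tissue.

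A value below is the log2 intensity of a probe minus the 75th percentile of its array, so that 0 is the level of that percentile and 1 unit is a factor of 2. All 33 probes were well above background on the arrays of all 78 fish, and 2 single spots were dropped as outliers (condensin 3 in 1 control fish at 7 dpw and INCENP-B in 1 control fish at 43 dpw). Over the arrays 60.1% to 94.5% of all probes were well above background. The arrays of intact skin to 14 dpw lay on 6 slides and those of 36 to 57 dpw on the other 4, so that at 36 to 57 dpw wounding and the set of slides cannot be told apart. In skin as a whole, fewer cells of a type and less RNA per cell cannot be told apart either. Of the 6 leukocyte probes (myeloperoxidase, neutrophil cytosolic factors 1 and 2 and CD53) 6 of 6 were above 0 in wounds against intact skin at 1, 3 and 7 dpw, with median differences of 2.48, 2.31 and 2.57 on the log2 scale, and 5, 6 and 4 passed the test described below. The 3 hemoglobin probes of red blood cells all passed as higher at these days, with medians of 3.64, 3.07 and 2.37. Of the 6 epidermal probes (5 keratins and periplakin) 4 were above 0 and 2 below at each of these days, with medians of 0.73, 1.55 and 0.80. Of them 3, 4 and 3 passed as higher and 0, 1 and 1 as lower, the lower one being keratin 20. Both dermal probes, for a chain of type I collagen, passed as lower at the 3 days, with medians of -1.06, -2.30 and -1.98. The summed level of these collagen probes, in units of the array's 75th percentile, was 2.03 to 6.80 in HFD and 5.12 to 6.17 in control wounds of 1 dpw, against 3.12 to 17.5 in HFD and 8.88 to 13.7 in control intact skin. The adipocyte fatty acid-binding protein passed as lower too, at -1.68, -1.32 and -2.17. Each of these probes was well above background on at least 1 array of every group. The lists were drawn from the study's own list, and their part in the changes described below was not tested.

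Fish apart from their group were few. HFD intact fish 3 had the lowest mcm2, mcm5, mcm6-B and PCNA values of all intact fish. Its mean over 13 replication probes (all but PSF3 and polymerase delta-4) was -1.01 on the log2 scale from the intact mean, against 0.29, -0.03 and -0.13 in HFD intact fish 1, 2 and 4. Control fish 5 at 3 dpw lay at -0.61, whereas control fish 1 to 4 of that day lay at 0.82, 1.21, 0.25 and 0.55. Leaving out HFD intact fish 3 or control fish 5 at 3 dpw changed calls, which are given with the counts below.

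Most of the 33 probes were lower in wounds than in intact skin at 1 dpw, and by 7 dpw more were higher than lower. At 1 dpw 22 of the 33 probes were lower than in intact skin and 4 were higher, by a log2 difference beyond 0.8 and an adjusted p under 0.05 (limma, Benjamini-Hochberg over all probes tested), while over all 12684 probes tested 17.2% were lower and 11.7% higher. The median difference was -1.22 over the 33 probes and -0.25 over all probes. Every fish of 1 dpw lay below every intact fish for 11 probes, against 7.92% of all probes, and above every intact fish for 1 (8.73%). At 3 dpw 12 were lower and 3 higher (23.5% and 14.3% of 12870 probes), and wounds lay below all intact fish for 4 probes and above them for 2 (13.4% and 11.2%). At 7 dpw the direction had turned, with 15 higher and 2 lower (11.2% and 19.8% of 12967), and the median was 0.72 over the 33 probes and -0.16 over all. Without HFD intact fish 3 11 were higher and 2 lower, and mcm2-b, mcm4, mcm6-B and Ssa#S30262006, at 0.61 to 0.79, no longer reached the fold. Wounds lay above all intact fish for 5 probes and below them for 1 (8.93% and 12.4%). At 14 dpw 6 were higher and 2 lower (10.6% and 18.5% of 12838), without overlap for 2 higher and 2 lower probes (8.44% and 9.06%). Without HFD intact fish 3 5 were higher at 14 dpw, GINS1 being at 0.69, and 23 were lower at 1 dpw, SLD5 being at -0.89.

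These counts depend on how arrays are scaled. With the mean of each array as the scale the median of all probes shifted by 0.26, 0.47, 0.63 and 0.55 at 1, 3, 7 and 14 dpw. The 33 probes then held 20 lower and 4 higher at 1 dpw, and 9 lower and 4 higher at 3 dpw. At 7 dpw they held 24 higher and 1 lower, and at 14 dpw 21 higher and 1 lower. Their medians were 1.35 at 7 dpw and 0.99 at 14 dpw, against 0.47 and 0.40 over all probes. The shares of all probes called on this scale are not given here. The fall at 1 dpw and the rise at 7 dpw kept their direction, and the counts at 7 and 14 dpw moved with the scale. At 3 dpw the median of the 33 probes changed sign, from -0.33 to 0.14 with array means. The median of all probes moved likewise, from -0.23 to 0.24, and was a little higher on both scales. Whether the 33 probes as a set lay below or above intact skin at 3 dpw is therefore not settled.

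**Figure D1:**
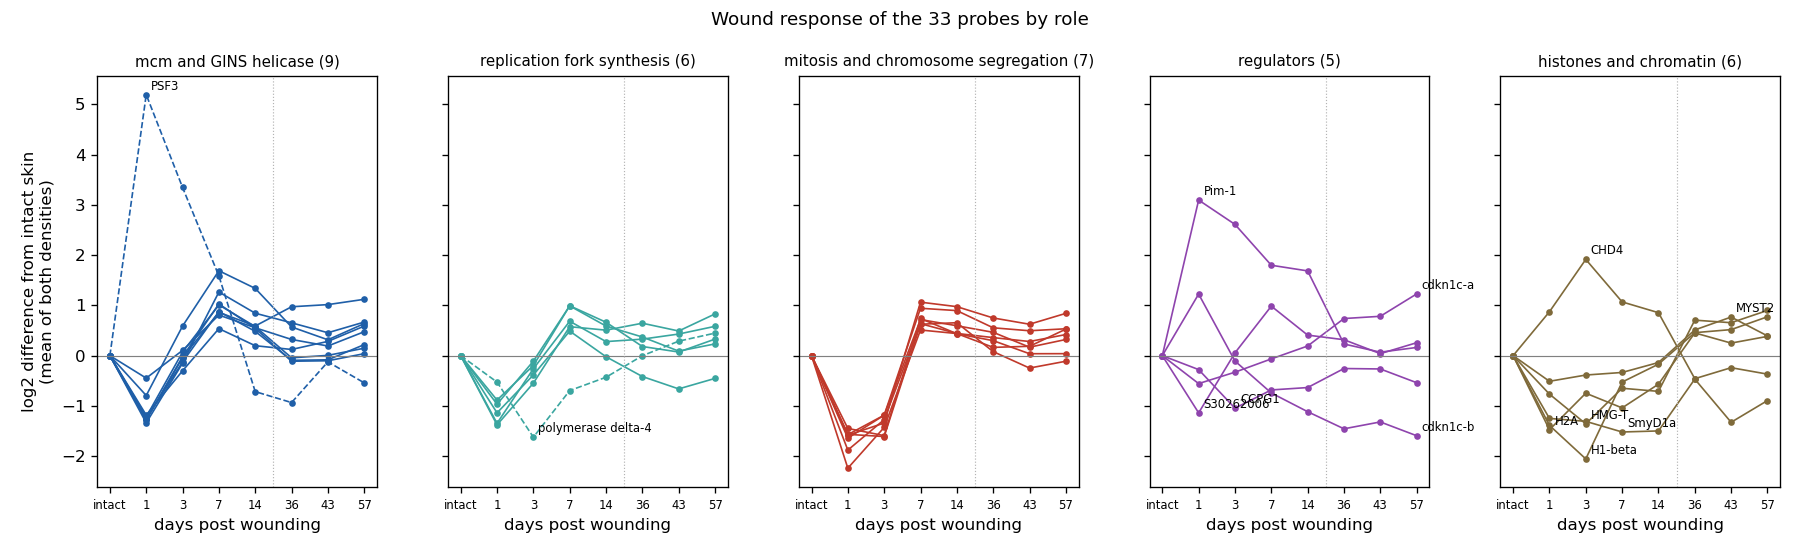
Difference from intact skin on the log2 scale (mean of both densities) for each of the 33 probes, by day, in 5 panels by role. The dotted line marks the change of slides between 14 and 36 dpw, and dashed lines are PSF3 and polymerase delta-4. Of the solid lines, replication probes were lowest at 1 dpw, mitotic probes were below -1.1 at 1 and 3 dpw, and all of both were above 0 at 7 dpw.

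Of the helicase probes, mcm5 (Ssa#GRASP209149683), a subunit of the mcm ring, shows the course. Its values in intact skin were 0.49, 0.02, -1.49 and -0.01 in HFD fish and 0.15, 0.78, 0.35 and 0.21 in control fish. They were -1.03, -1.62, -1.77, -1.83 and -1.25 in HFD and -1.67, -1.18, -0.59, -0.23 and -0.86 in control fish at 1 dpw. All 10 wounds of that day lay below every intact fish except HFD intact fish 3, and the difference was -1.27 (SE 0.20, adjusted p = 1.31e-07), a level 2.41 times lower. At 3 dpw mcm5 was at -0.49, -0.79, -0.46, -0.69 and -0.51 in HFD and 1.23, 1.54, 0.28, 0.84 and -0.52 in control wounds. At 7 dpw mcm5 was at 1.33, 1.18, 1.62, 1.06 and 1.48 in HFD and 0.74, 1.18, 0.50, 0.94 and 0.91 in control wounds. At 14 dpw mcm5 was at 0.96, 0.73, 1.03, 0.81 and 0.58 in HFD and 0.35, 0.28, 0.50, 0.74 and 0.14 in control wounds. At 3 dpw 4 control wounds lay within or above the range of the other 7 intact fish and all 5 HFD wounds below it, and at 7 dpw 8 of 10 wounds lay above all 8 intact fish. The difference from intact skin was -0.02 (SE 0.20, adjusted p = 0.93) at 3 dpw and 1.03 (SE 0.20, adjusted p = 1.05e-05) at 7 dpw.

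The 2 probes annotated as mcm2, another subunit of the ring, are called mcm2-a (Ssa#GRASP223648101) and mcm2-b (Ssa#TC103697). For mcm2-a the intact fish had 2.06, 1.24, 0.38 and 1.45 in HFD and 1.66, 2.18, 1.71 and 1.72 in control, and the wounds of 1 dpw had 0.59, -0.08, -0.54, -0.21 and 0.00 in HFD and 0.58, 0.24, 0.95, 1.12 and 1.005 in control. The fall at 1 dpw was -1.18 (SE 0.19, adjusted p = 4.36e-07). At 3 dpw mcm2-a was at 0.68, 0.65, 1.06, 0.32 and 0.92 in HFD and 2.26, 2.59, 1.42, 2.07 and 0.50 in control wounds. At 7 dpw mcm2-a was at 2.10, 1.83, 2.57, 1.82 and 2.48 in HFD and 1.85, 2.25, 1.81, 2.22 and 1.94 in control wounds. At 14 dpw mcm2-a was at 2.09, 1.88, 2.18, 1.93 and 1.62 in HFD and 1.16, 1.55, 1.72, 1.86 and 1.48 in control wounds. The difference of 0.54 (SE 0.19, adjusted p = 0.0148) at 7 dpw stayed under the fold asked for. For mcm2-b the intact fish had 0.54, 0.18, -1.27 and 0.23 in HFD and 0.19, 0.74, 0.42 and 0.32 in control, against -0.68, -1.18, -1.95, -1.78 and -1.27 and -1.45, -1.32, -0.56, 0.07 and -0.70 in HFD and control wounds of 1 dpw. The fall of mcm2-b was -1.25 (SE 0.21, adjusted p = 8.22e-07). At 3 dpw mcm2-b was at -0.34, -0.84, -0.30, -0.98 and -0.38 in HFD and 1.17, 1.49, 0.36, 0.92 and -0.67 in control wounds. At 7 dpw mcm2-b was at 1.07, 0.77, 1.58, 0.77 and 1.38 in HFD and 0.68, 1.12, 0.72, 1.16 and 1.20 in control wounds. At 14 dpw mcm2-b was at 1.05, 0.84, 1.08, 1.05 and 0.45 in HFD and 0.16, 0.58, 0.45, 0.56 and 0.32 in control wounds. For both probes all 10 wounds of 1 dpw lay below every intact fish but HFD intact fish 3, and all 10 wounds of 7 dpw lay within or above the range of the other 7 intact fish. Mcm2-b passed the test at 7 dpw at 0.88 (SE 0.21, adjusted p = 0.000332), but without HFD intact fish 3 it was at 0.68 (SE 0.21, adjusted p = 0.00414), under the fold.

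The mcm6-B probe (Ssa#GRASP223648747), annotated as the zygotic form of the subunit that frogs use in embryos, had the widest spread of the ring. Its intact values were 0.52, -0.12, -2.11 and -0.70 in HFD and -0.93, 0.39, -0.58 and -0.73 in control fish, and those of 1 dpw were -1.22, -2.44, -2.87, -2.41 and -2.30 in HFD and -2.16, -2.09, -0.79, -0.96 and -0.94 in control. In 9 of 10 wounds of 1 dpw it was below all intact fish but HFD intact fish 3. At 3 dpw mcm6-B was at -1.25, -1.20, -1.32, -1.58 and -1.40 in HFD and 0.82, 1.12, -0.10, 0.49 and -1.29 in control wounds. At 7 dpw mcm6-B was at -0.06, 0.81, 0.46, 0.69 and 0.90 in HFD and 0.21, 0.85, 0.33, 0.55 and -1.44 in control wounds. At 14 dpw mcm6-B was at 0.80, -1.40, 0.16, 0.64 and 0.51 in HFD and -0.51, 0.04, 0.24, -0.11 and 0.22 in control wounds. The fall of -1.29 (SE 0.34, adjusted p = 0.000928) and the rise of 0.86 (SE 0.34, adjusted p = 0.0245) at 7 dpw passed the test with larger errors than in the other subunits. Without HFD intact fish 3 the difference at 7 dpw was 0.61 (SE 0.34, adjusted p = 0.121) and did not pass. Other single fish (control fish 5 at 7 dpw, HFD fish 2 at 14 dpw) lay far below the rest of their group. Of the other helicase probes, mcm3, GINS1 and SLD5 (GINS holds the ring to its partner Cdc45) and mcm4 differed from intact skin by -1.34 to -0.45 at 1 dpw. Of these mcm3 and GINS1 passed, and SLD5 at -0.79 and mcm4 at -0.45 did not reach the fold. All 4 passed as higher at 7 dpw, SLD5 with the largest difference of the replication probes, 1.69 (SE 0.19, adjusted p = 9.83e-12), where all 10 wounds lay above all 8 intact fish.

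PCNA (Ssa#GRASP209731795) is the clamp that holds the polymerase on DNA and a common mark of dividing cells. In intact skin it was at 1.18, 0.82, -0.13 and 0.68 in HFD and 1.15, 1.46, 1.03 and 1.03 in control fish. At 1 dpw it was at 0.15, 0.31, -0.55, -0.36 and 0.21 in HFD and -0.27, -0.08, 0.52, 0.31 and -0.04 in control fish, below all intact fish but HFD intact fish 3. The fall was -0.88 (SE 0.15, adjusted p = 1.36e-06), 1.85 times lower. At 3 dpw it was at 0.35, -0.04, 0.24, 0.03 and 0.34 in HFD and 1.63, 1.87, 1.12, 1.19 and 0.35 in control fish. Every HFD wound lay below every control wound, but HFD fish 1 at 0.347 and control fish 5 at 0.348 hardly differed. All control wounds but fish 5 were at or above 1.12. At 7 dpw PCNA was at 2.12, 1.93, 2.26, 1.86 and 2.41 in HFD and 1.46, 1.81, 1.34, 1.77 and 2.01 in control wounds. At 14 dpw PCNA was at 1.87, 1.76, 1.93, 1.71 and 1.57 in HFD and 1.36, 1.40, 1.39, 1.49 and 1.22 in control wounds. The difference from intact skin was 0.99 (SE 0.15, adjusted p = 1.14e-07) at 7 dpw, a factor of 1.99, and 0.66 (SE 0.15, adjusted p = 0.000185) at 14 dpw, which stayed under the fold.

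The enzymes that work with PCNA moved with it at 1 dpw. The probes were for the small subunit of primase, which lays the RNA primers, and polymerase alpha B, a subunit of the polymerase that extends them. Further probes were RFC5, a part of the loader of the clamp, and Rpa2, which covers single-stranded DNA. In this order they differed from intact skin by -0.97, -1.35, -1.38 and -1.14, all 4 past the test. For polymerase alpha B and RFC5 all 10 wounds lay below all 8 intact fish. At 7 dpw the primase probe passed as higher at 0.99, and the other 3 were at 0.49 to 0.69, under the fold. Polymerase delta-4 did otherwise: its difference was -0.53 at 1 dpw, -1.62 (SE 0.13, adjusted p = 1.91e-17) at 3 dpw with every wound below every intact fish, and -0.70 at 7 dpw.

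All 7 mitotic probes were lower than in intact skin at both 1 and 3 dpw. Cdk1 (Ssa#GRASP209734763, annotated as cell division control protein 2 homolog), the kinase that drives cells into mitosis, had intact values of 0.49, 0.75, 0.36 and 0.29 in HFD and 0.90, 0.98, 0.24 and 0.46 in control fish. Its values at 1 dpw were -0.81, -2.42, -1.15, -0.90 and -1.76 in HFD and -1.10, -1.15, -0.01, -0.17 and -0.60 in control fish. Every wound lay below every intact fish, and the difference was -1.57 (SE 0.19, adjusted p = 2.85e-10), 2.96 times lower. At 3 dpw the values were -1.07, -1.71, -1.61, -2.05 and -1.14 in HFD and -0.05, 0.12, -0.29, -0.97 and -1.73 in control fish, again all below intact skin, with a difference of -1.61 (SE 0.19, adjusted p = 9.19e-11). At 7 dpw cdk1 was at 1.25, 0.88, 1.64, 0.74 and 1.39 in HFD and 0.94, 1.53, 0.79, 1.51 and 1.18 in control wounds. At 14 dpw cdk1 was at 1.55, 1.16, 1.33, 1.66 and 0.90 in HFD and 1.31, 1.30, 1.12, 0.99 and 0.83 in control wounds. Between 3 and 7 dpw cdk1 rose by 2.24 (SE 0.18, adjusted p = 8.25e-16), 4.71 times, whereas between 1 and 3 dpw its difference was -0.04 (SE 0.18, adjusted p = 0.872).

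Ube2c (Ssa#S30252057), the ubiquitin-conjugating enzyme that serves the anaphase-promoting complex, read 0.69, 0.68, 0.74 and 0.65 in HFD and 1.46, 1.61, 0.54 and 0.97 in control intact skin. The wounds of 1 dpw read -0.22, -2.16, -1.46, -0.97 and -1.16 in HFD and -0.32, -0.83, 0.66, 0.06 and -0.25 in control. Those of 3 dpw read -0.80, -0.86, -0.71, -1.52 and -0.46 in HFD and 0.55, 0.58, 0.49, -0.49 and -1.001 in control. All HFD wounds of both days lay below all intact fish, while 1 control wound of 1 dpw and 2 of 3 dpw touched the lowest of the intact values. The wounds of 7 dpw read 2.13, 1.38, 2.58, 1.61 and 2.38 in HFD and 1.44, 2.34, 1.68, 2.38 and 1.92 in control. Those of 14 dpw read 2.46, 2.22, 2.16, 2.71 and 1.63 in HFD and 1.47, 1.70, 1.81, 1.45 and 1.35 in control. Relative to intact skin ube2c was at -1.58 (SE 0.21, adjusted p = 2.4e-09) at 1 dpw, -1.34 (SE 0.21, adjusted p = 1.28e-07) at 3 dpw and 1.06 (SE 0.21, adjusted p = 1.78e-05) at 7 dpw. The step of 2.41 (SE 0.20, adjusted p = 1.21e-15) between 3 and 7 dpw, a factor of 5.30, was the largest among the 33 probes.

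**Figure D2:**
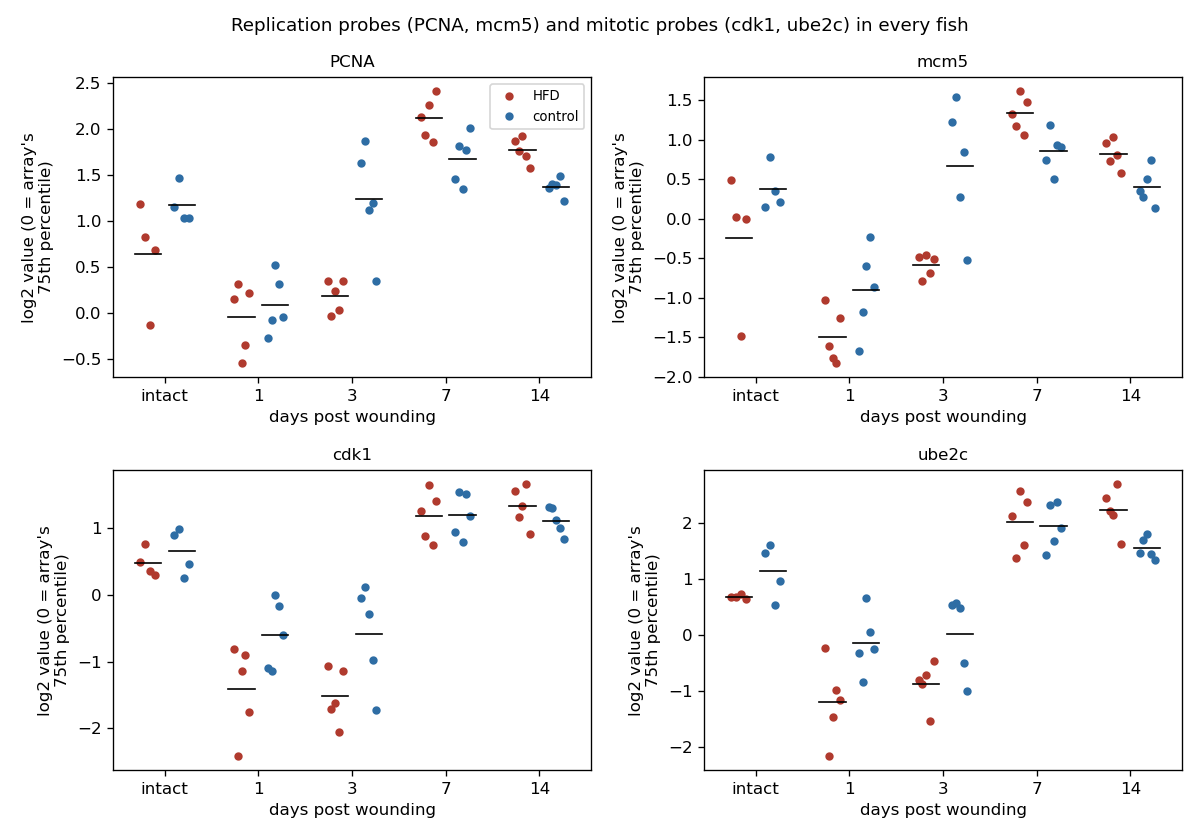
Values of PCNA, mcm5, cdk1 and ube2c in every fish (points, HFD left of control at each day) with the mean of each group (bars), as log2 values with 0 at the array's 75th percentile. At 3 dpw the replication probes had left the low level of 1 dpw in 4 of 5 control fish, while cdk1 lay below all intact fish in all 10 wounds.

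ESCO1 (Ssa#GRASP209154019), which acetylates the cohesin ring that holds sister chromatids together, had the largest fall at 1 dpw. Intact fish had -0.16, -0.12, -1.18 and -0.80 in HFD and 0.34, 0.49, 0.07 and 0.11 in control. Wounds of 1 dpw had -1.95, -3.54, -2.83, -2.85 and -2.59 in HFD and -2.15, -2.72, -1.42, -1.78 and -2.13 in control. The groups did not overlap, and the difference was -2.24 (SE 0.19, adjusted p = 5.16e-16), 4.72 times lower. At 3 dpw ESCO1 was at -1.91, -2.59, -2.25, -2.80 and -1.84 in HFD and -0.17, -0.07, -0.97, -0.91 and -2.34 in control wounds. At 7 dpw ESCO1 was at 0.53, 0.32, 1.01, 0.13 and 0.70 in HFD and 0.00, 0.55, -0.23, 0.22 and 0.33 in control wounds. At 14 dpw ESCO1 was at 0.65, 0.46, 0.74, 0.54 and 0.10 in HFD and 0.03, 0.12, 0.10, -0.01 and 0.12 in control wounds. The HFD wounds of 3 dpw were all lower than every control wound but that of fish 5. The other 4 mitotic probes were MAD2A of the spindle checkpoint, the chromosome-bound motor KIF4A, condensin complex subunit 3 and INCENP-B of the passenger complex. They lay at -1.88 to -1.45 from intact skin at 1 dpw with no overlap between wounds and intact fish, and at -1.59 to -1.18 at 3 dpw. All 4 passed the test at both days.

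The 2 roles can be set against each other within each fish, although each fish was sampled on only 1 day. Leaving out PSF3 and polymerase delta-4, which were set aside after their values were seen, the 13 replication probes differed from intact skin by -0.55 to 0.59 at 3 dpw and none passed the test. By density the median of the 13 was -0.48 in HFD, with 12 below 0, and 0.24 in control, with 3 below 0. The 7 mitotic probes differed by -1.61 to -1.18 over both densities, and all 7 passed. For both roles the level against intact skin depends on the scale. With array means the median of all probes at 3 dpw shifted upward by 0.47. From 1 to 3 dpw the 33 probes held 13 that rose and 3 that fell (5.87% and 8.74% of 12665 probes tested), and 10 of the 13 replication probes but 1 of the 7 mitotic probes (ESCO1) were among those that rose. From 3 to 7 dpw 22 rose and 3 fell (5.55% and 3.31% of 12910), with steps of 1.90 to 2.41 in all 7 mitotic probes and of 0.70 to 1.42 in the replication probes, of which 12 passed. Without control fish 5 at 3 dpw 17 rose and 2 fell from 3 to 7 dpw, and 8 of the 13 replication probes and all 7 mitotic probes were among those that rose. The replication probes that no longer reached the fold were mcm2-a, mcm3, mcm6-B and Rpa2, at 0.68 to 0.78. From 7 to 14 dpw none rose and 1 (PSF3) fell (1.74% and 1.07% of 12908).

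For each fish the mean difference from intact skin of the mitotic probes was subtracted from that of the replication probes, a measure that the scale of an array does not enter. The result was 1.02 to 1.47 in HFD fish and 0.91 to 1.65 in control fish at 3 dpw, above every fish of the other days except HFD fish 2 at 1 dpw (1.39). It was 0.38 to 1.39 in HFD and 0.15 to 0.71 in control fish at 1 dpw, 0.11 to 0.47 in HFD and 0.01 to 0.22 in control fish at 7 dpw, and -0.58 to 0.35 in HFD and -0.35 to 0.26 in control intact fish. Where intact fish and wounds lay on 1 slide, the median of the replication probes was also above that of the mitotic probes at 3 dpw. The medians of replication and mitotic probes against the intact fish were -1.05 and -2.32 on slide 7 and -0.88 and -1.91 on slide 8. On slide 10 they were 1.51 and 0.03, or 1.103 and 0.099 with HFD intact fish 3 left out and 1 intact fish remaining. Slides 7 and 8 held HFD wounds with control intact skin and slide 10 the reverse, and the difference between the roles was not tested.

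**Figure D3:**
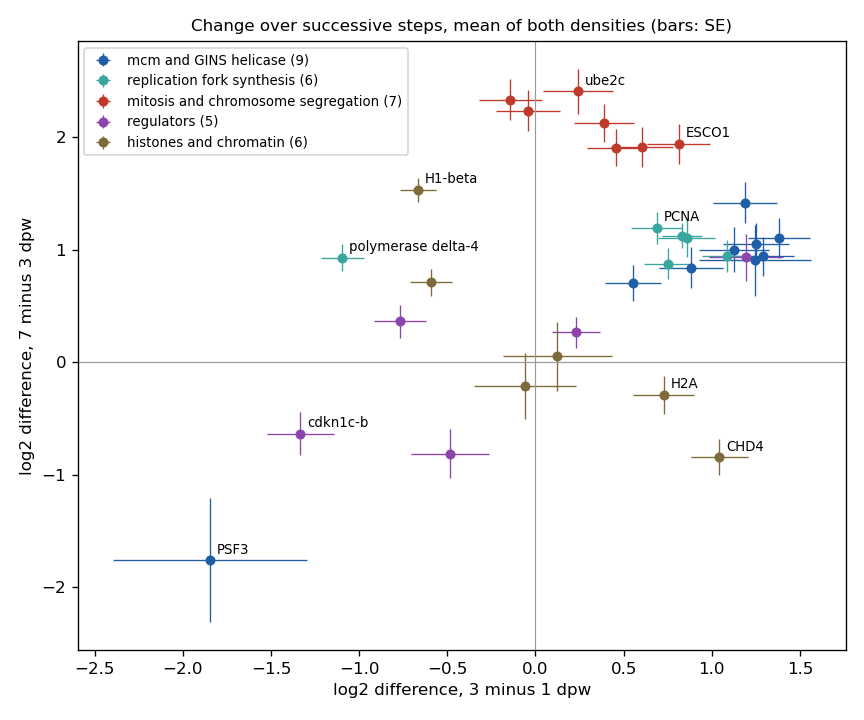
Change from 1 to 3 dpw (horizontal axis) and from 3 to 7 dpw (vertical axis) of the 33 probes as log2 differences averaged over both densities, with bars of 1 SE and colours by role. The 7 mitotic probes stand at steps of 1.90 to 2.41 between 3 and 7 dpw. The 13 replication probes other than PSF3 and polymerase delta-4 stand at 0.55 to 1.38 for the first step and 0.70 to 1.42 for the second.

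PSF3 (Ssa#S47727879) is annotated as a GINS subunit but ran against the other 2 of that complex. Its intact values were -1.04, 0.42, 4.27 and 2.30 in HFD and -0.93, -1.48, -1.38 and -1.43 in control fish. They were 2.39, 6.31, 6.07, 3.57 and 6.61 in HFD and 4.94, 5.93, 6.02, 4.99 and 6.03 in control wounds at 1 dpw. At 3 dpw PSF3 was at 5.11, 0.98, 2.60, 4.41 and 3.90 in HFD and 0.75, 5.05, 4.83, 5.06 and 1.71 in control wounds. The rise was 5.20 (SE 0.58, adjusted p = 1.29e-11) at 1 dpw, 36.6 times, and 3.35 (SE 0.58, adjusted p = 1.2e-06) at 3 dpw, the largest of the 33 probes at both days. HFD intact fish 3 and 4 lay at 4.27 and 2.30, inside the range of the wounds of 3 dpw, while the 4 control intact fish spanned -1.48 to -0.93. At 7 dpw PSF3 was at 0.66, -0.42, 1.31, -0.04 and 0.99 in HFD and 5.35, 2.39, 0.72, 3.67 and 2.17 in control wounds. At 14 dpw PSF3 was at -0.78, -0.67, -0.96, -0.15 and -0.06 in HFD and -1.43, -0.74, 0.18, -0.44 and -1.18 in control wounds. At 7 dpw the HFD wounds lay within the intact HFD range, and all 5 control wounds lay above the control intact range. Its correlation with PCNA between fish was 0.06, against 0.84 for GINS1 and 0.85 for SLD5.

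Among the regulators, the 2 probes annotated as cyclin-dependent kinase inhibitor 1C (p57, which holds cells out of the cycle) differed in their course. The probe cdkn1c-a (Ssa#GRASP209732103) had 0.14, -0.39, 0.43 and -0.06 in HFD and 0.24, 0.31, 0.21 and -0.12 in control intact fish. Wounds of 1 dpw had -0.44, -0.15, -0.55, -0.53 and -0.93 in HFD and -0.59, -0.31, -0.09, -0.51 and -0.49 in control. Of these 10 wounds 7 lay below all intact fish. At 3 dpw cdkn1c-a was at -0.77, -1.28, -0.53, -0.81 and -0.81 in HFD and 0.55, 0.74, 0.23, 0.61 and -0.27 in control wounds. At 7 dpw cdkn1c-a was at -0.86, -0.57, 0.52, -0.19 and -0.19 in HFD and 0.27, 0.40, 0.42, 0.28 and 0.22 in control wounds. At 14 dpw cdkn1c-a was at 0.38, -0.10, 0.23, 0.83 and 0.52 in HFD and 0.05, 0.30, 0.42, -0.03 and 0.28 in control wounds. At 3 dpw the densities did not overlap, with all HFD fish lower. Against intact skin its differences of -0.56 to 0.19 from 1 to 14 dpw did not reach the fold. The probe cdkn1c-b (Ssa#S31976502) had -1.87, -1.23, -0.05 and -1.57 in HFD and -1.61, -2.02, -1.14 and -1.25 in control intact fish. In wounds 1 dpw it had -0.18, 0.34, -0.13, -0.09 and 0.23 in HFD and -0.53, 0.31, 0.10, -0.85 and -0.38 in control. Of these 10 wounds 4 lay above all intact fish and all 10 above the other 7. At 3 dpw cdkn1c-b was at -0.81, -0.89, -1.49, -0.25 and -0.85 in HFD and -2.63, -2.11, -1.73, -2.05 and -1.69 in control wounds. At 7 dpw cdkn1c-b was at -1.09, -1.50, -2.22, -2.06 and -1.91 in HFD and -2.29, -2.60, -2.66, -2.03 and -2.50 in control wounds. At 14 dpw cdkn1c-b was at -2.71, -2.51, -2.06, -2.28 and -2.32 in HFD and -2.80, -2.67, -2.28, -2.07 and -2.88 in control wounds. This probe rose by 1.23 (SE 0.20, adjusted p = 5.06e-07) at 1 dpw and was lower than in intact skin by 14 dpw, at -1.12 (SE 0.20, adjusted p = 4.07e-06) with every wound below every intact fish. HFD intact fish 3, at -0.05, lay within its range at 1 dpw. Whether the 2 probes read copies of 1 gene or different genes is not given in the sources used here.

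Pim-1 (Ssa#GRASP209148369), a kinase that cytokines induce and that favours survival and entry into the cycle, rose in every wound of the first weeks. Intact fish had -2.91, -3.29, -2.61 and -2.69 in HFD and -2.51, -3.15, -3.30 and -3.05 in control. By 1 dpw the wounds had 0.07, 0.74, -0.20, -0.37 and 0.70 in HFD and 0.11, 0.94, -0.07, -0.57 and 0.23 in control. The rise was 3.10 (SE 0.23, adjusted p = 2.42e-18), 8.56 times. At 3 dpw Pim-1 was at 0.32, -0.04, -0.27, 0.66 and 0.95 in HFD and -1.43, -1.21, -0.56, -0.94 and -0.76 in control wounds. At 7 dpw Pim-1 was at -0.80, -0.76, -1.53, -0.72 and -0.92 in HFD and -1.39, -1.51, -1.26, -1.21 and -1.30 in control wounds. At 14 dpw Pim-1 was at -1.17, -0.87, -0.98, -0.76 and -1.17 in HFD and -2.27, -2.001, -1.19, -0.33 and -1.79 in control wounds. At 3 dpw the densities did not overlap. All 10 wounds lay above all 8 intact fish at 1, 3, 7 and 14 dpw, and Pim-1 was the most raised of the 33 probes at 7 dpw (1.80 (SE 0.23, adjusted p = 1.24e-09)) and 14 dpw (1.69 (SE 0.23, adjusted p = 8.18e-09)). Of the leukocyte probes 6 of 6 were above 0 at 1, 3 and 7 dpw, with values given above. At 14 dpw 4 of them were above 0 and 2 below, with a median of 1.75. Of the last 2 regulators, CCPG1, named as cell cycle progression protein 1, was lower at 3 dpw at -1.05 (SE 0.16, adjusted p = 3.13e-08). The probe Ssa#S30262006, which carries no gene name, lay with the replication probes. It differed from intact skin by -1.14 on the first day, 0.06 at 3 dpw and 0.99 at 7 dpw.

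**Figure D4:**
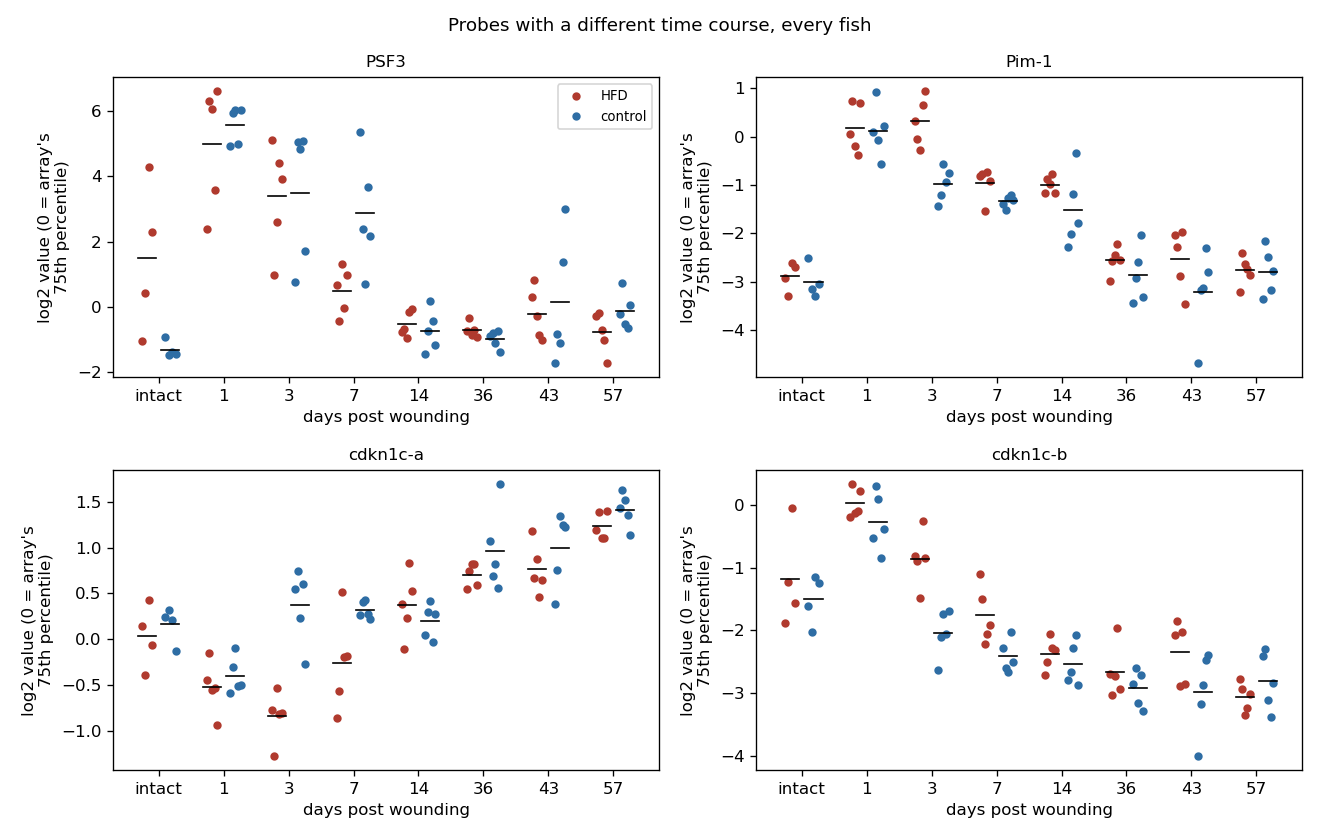
Values of PSF3, Pim-1, cdkn1c-a and cdkn1c-b in every fish at each day (points, HFD left of control, bars are means), as log2 values with 0 at the array's 75th percentile. PSF3, Pim-1 and cdkn1c-b had their highest group means at 1 or 3 dpw, and cdkn1c-a had its highest at 57 dpw.

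Histones and chromatin proteins had no common course. H2A (Ssa#GRASP209732303), a core histone, had 1.19, 1.39, 1.096 and 1.51 in HFD and 0.85, 1.40, 1.94 and 1.55 in control intact fish. Wounds of 1 dpw had 0.18, -0.58, -0.10, 0.44 and -0.91 in HFD and -0.04, -0.19, 0.18, -0.22 and 0.15 in control, all below all intact fish, with a difference of -1.47 (SE 0.18, adjusted p = 2.78e-10). At 3 dpw H2A was at 0.16, 0.07, 0.63, 0.01 and -0.02 in HFD and 0.96, 1.42, 0.66, 1.52 and 0.76 in control wounds. At 7 dpw H2A was at -0.03, 0.22, 0.60, -0.29 and 0.32 in HFD and 0.81, 0.61, 0.45, 0.08 and 0.49 in control wounds. At 14 dpw H2A was at 0.95, 0.44, 0.18, 0.77 and 0.14 in HFD and 1.37, 0.92, 0.68, 1.01 and 1.52 in control wounds. Unlike the replication probes it was again below every intact fish at 7 dpw, at -1.04 (SE 0.18, adjusted p = 1.88e-06). H1-beta (Ssa#GRASP209154119), a linker histone named for late embryos of sea urchins, had 2.34, 1.99, 1.68 and 2.14 in HFD and 2.41, 2.41, 2.51 and 2.33 in control intact fish. After 1 day the wounds had 1.04, 0.65, 0.49, 0.54 and 0.73 in HFD and 0.72, 0.81, 1.30, 0.97 and 1.12 in control, all below intact skin. At 3 dpw H1-beta was at -0.32, -0.25, -0.05, -0.47 and -0.09 in HFD and 0.98, 0.92, 0.04, 0.96 and -0.02 in control wounds. At 7 dpw H1-beta was at 1.05, 1.11, 1.74, 1.01 and 1.69 in HFD and 1.94, 2.22, 2.22, 1.78 and 2.26 in control wounds. At 14 dpw H1-beta was at 2.06, 2.05, 1.83, 2.15 and 2.03 in HFD and 2.03, 2.13, 2.24, 1.86 and 2.18 in control wounds. Its fall at 3 dpw, -2.06 (SE 0.11, adjusted p = 3.7e-25), was the largest of that day, with no overlap at 1 or 3 dpw, and its level was back in the intact range at 14 dpw. HMG-T, a high mobility group protein of trout chromatin, was also lowest at 3 dpw, at -1.36 (SE 0.13, adjusted p = 1.43e-14) with no overlap.

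SmyD1a (Ssa#EG766170), a histone methyltransferase that in zebrafish is needed for the build-up of muscle fibres, had 1.02, 0.76, -0.64 and 0.40 in HFD and -0.20, 0.59, 0.90 and 0.48 in control intact fish. Wounds of 1 dpw had 0.81, -1.32, -0.59, -0.33 and -1.85 in HFD and -1.10, -1.40, -1.20, -0.37 and -0.99 in control. Those of 3 dpw had -0.41, -0.93, -0.77, -1.74 and -1.54 in HFD and -0.35, -0.78, -0.66, -1.71 and -0.05 in control. At both days wounds and intact fish overlapped. Those of 7 dpw had -1.94, -1.11, -0.52, -0.87 and -1.82 in HFD and -0.80, -0.63, -0.66, -1.49 and -1.23 in control. Those of 14 dpw had -1.55, -1.46, -1.72, -2.13 and -1.13 in HFD and 0.22, -0.20, -1.26, -1.02 and -0.61 in control. It passed as lower at 1, 3, 7 and 14 dpw and was the lowest of the 33 probes at 7 dpw (-1.52 (SE 0.31, adjusted p = 2.53e-05)) and 14 dpw (-1.50 (SE 0.31, adjusted p = 3.49e-05)). The only muscle probe of the list, myosin light polypeptide 4, was at 1.84, 1.07, 1.20 and 4.89 from intact skin at those days, averaged over both densities. It passed as higher at 1 and 14 dpw but not at 3 or 7 dpw. At 3 dpw the densities lay on opposite sides of 0 for this muscle probe, at 3.59 in HFD and -1.44 in control. CHD4, a chromatin remodeller of the NuRD complex, was higher at all 4 days and highest at 3 dpw, 1.92 (SE 0.17, adjusted p = 2.17e-15), where all wounds lay above all intact fish. The acetyltransferase MYST2 did not pass at any of them, with differences of -0.51 to -0.14.

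From 36 dpw few of the 33 probes differed from intact skin on the 75th percentile scale. At 36, 43 and 57 dpw 1, 1 and 5 were higher than in intact skin and 1, 2 and 2 lower (9.14%, 7.09% and 6.72% of all probes tested were higher, 26.4%, 24.9% and 24.4% lower). With array means as the scale 25, 24 and 24 were higher and 0, 0 and 1 lower, so that the level of these late days relative to intact skin is not settled by these arrays. On the 75th percentile scale the highest was mcm6-B at 36 dpw, 0.97 (SE 0.34, adjusted p = 0.0105), and at 43 dpw, 1.02 (SE 0.34, adjusted p = 0.00816), and cdkn1c-a at 57 dpw, 1.23 (SE 0.14, adjusted p = 8.03e-11). Without HFD intact fish 3 mcm6-B was at 0.72 (SE 0.34, adjusted p = 0.0605) and 0.76 (SE 0.34, adjusted p = 0.048) at 36 and 43 dpw and was not called at either. The highest were then cdkn1c-a at 36 dpw, 0.81 (SE 0.15, adjusted p = 5.72e-06), and MYST2 at 43 dpw, 0.87 (SE 0.34, adjusted p = 0.026), with 1, 2 and 4 probes higher at 36, 43 and 57 dpw. The lowest was cdkn1c-b at 36 dpw, -1.46 (SE 0.20, adjusted p = 7.79e-09), and at 57 dpw, -1.59 (SE 0.20, adjusted p = 7.92e-10), and SmyD1a at 43 dpw, -1.33 (SE 0.31, adjusted p = 0.000208). Within the slides of these days none of the 33 passed (limma) between 36 and 43 dpw (0.253% of all probes tested were higher and 0.407% lower) or between 43 and 57 dpw (0.0676% and 0.279%).

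Both densities showed the fall and the return. These responses use the fish on which the probes were chosen, and the difference between the densities' responses, which contains that choice, was not tested. At 1 dpw 23 probes were lower and 3 higher in HFD (17.6% and 10.6% of all probes tested), and 21 lower and 4 higher in control (13.4% and 12.7%). At 3 dpw 14 were lower and 3 higher in HFD (23.6% and 13.9%), and 11 lower and 4 higher in control (19.3% and 14.1%). In each density the lower ones included all 7 mitotic probes, which in control depended on the scale, as given below. Without control fish 5 at 3 dpw 7 were lower in control, 3 of them mitotic, and 6 were higher. At 7 dpw 22 were higher and 5 lower in HFD (12.1% and 19.5%), and 5 higher and 3 lower in control (10.7% and 15.2%). At 14 dpw 17 were higher and 6 lower in HFD (12.1% and 18.7%), and 1 was higher and 1 lower in control (8.5% and 11.1%). Without HFD intact fish 3 19 were lower in HFD at 3 dpw, 5 of them replication probes. In HFD 17 were then higher and 5 lower at 7 dpw and 11 higher and 4 lower at 14 dpw, and 2, 2 and 4 were higher and 1, 1 and 1 lower at 36, 43 and 57 dpw. With array means as the scale 4 were lower in control at 3 dpw, so that at most 4 of the 7 mitotic probes passed there. On that scale 23 were higher and 1 lower in HFD at 7 dpw and 20 higher and 0 lower in control. At 14 dpw 24 were then higher and 1 lower in HFD and 6 higher and 0 lower in control. With that scale the median of all probes shifted by 0.69 in HFD and 0.57 in control at 7 dpw, and by 0.67 and 0.43 at 14 dpw. From 36 dpw the counts in HFD were 4 higher and 2 lower at 36 dpw (9.99% and 24.8%), 1 and 2 at 43 dpw (7.74% and 21.2%) and 9 and 3 at 57 dpw (8.63% and 20.7%). In control they were 1 higher and 1 lower at 36 dpw (7.88% and 19.1%), 1 and 2 at 43 dpw (6.38% and 20.4%) and 4 and 1 at 57 dpw (5.07% and 20.2%).

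HFD and control fish are compared here as a description only, since this is the contrast the probes were chosen on. At 3 dpw 24 of the 33 probes were lower and 2 higher in HFD by the study's criteria (log2 beyond 0.8 and unadjusted p under 0.05), where 2.4% and 3.37% of 12838 probes were lower and higher, and nothing is read from that count. The median was -0.93 over the 33 probes and -0.05 over all. The 13 replication probes other than PSF3 and polymerase delta-4 lay at -1.56 to -0.82 and the 7 mitotic probes at -1.39 to -0.84. Pim-1 and cdkn1c-b were higher in HFD, by 1.30 and 1.18. For 2 probes, Pim-1 and cdkn1c-b, all HFD fish lay above all control fish (2.92% of all probes), and for 5 below them (2.73%), namely PCNA, RFC5, cdkn1c-a, H2A and H1-beta. For PCNA the nearest fish, HFD fish 1 at 0.347 and control fish 5 at 0.348, hardly differed. Without control fish 5 the median was -1.17 and 24 probes were lower. On the only slide with both densities at 3 dpw, HFD fish 1 minus control fish 5, the median was 0.18, and 9 of 33 probes were lower in HFD.

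In intact skin 26 of the 33 probes were lower in HFD, with a median of -0.33, which was -0.13 without HFD intact fish 3. At 1 dpw the median was -0.51, and on the only slide with both densities -0.43. The medians were 0.17 at 7 dpw, 0.39 at 14 dpw, and -0.14, -0.13 and -0.06 at 36, 43 and 57 dpw. The 13 replication probes other than PSF3 and polymerase delta-4 were all higher in HFD, by 0.14 to 0.63 at 7 dpw and 0.09 to 0.57 at 14 dpw. Polymerase delta-4 was lower in HFD at 7 dpw, at -0.83. PSF3 was then at -0.42 to 1.31 in HFD and 0.72 to 5.35 in control wounds. In intact skin 1, PSF3 at 2.79, was past the criteria as higher and 1, ESCO1, as lower (1.1% and 0.336% of all probes). Without HFD intact fish 3 PSF3 was at 1.86 and still past them, whereas ESCO1 was at -0.61 and none was lower. The counts of higher and lower probes were 1 and 4 at 1 dpw (0.682% and 2.29%), 0 and 3 at 7 dpw (1.45% and 2.76%) and 1 and 1 at 14 dpw (2.04% and 2.5%). At 36 dpw 0 and 0 were (0.965% and 0.443%), at 43 dpw 1 and 0 (5.95% and 0.851%) and at 57 dpw 0 and 0 (2.42% and 0.32%). By the largest difference over the days, the members closest to the criterion of 0.8 were H1-beta at -0.81, RFC5 at -0.82 and CCPG1 at 0.83, and none lay under it.

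The leukocyte probes are set between the densities here as values, with no test. At 3 dpw 6 of 6 were above 0 for HFD minus control, with a median of 1.05, myeloperoxidase at 1.92 and the neutrophil cytosolic factors at 0.90 to 1.37. Their summed level, in units of the array's 75th percentile, was 40.6 to 114 in HFD and 29.1 to 50.7 in control wounds, and 6.50 to 15.8 in HFD and 6.75 to 10.6 in control intact skin, so that the densities overlapped. The summed level of the 6 epidermal probes was 127 to 222 in HFD and 94.4 to 211 in control wounds of 3 dpw, and the defining probes of both lists were detected in each density. The 2 collagen probes were at -0.42 and -0.29 and the hemoglobin probes at -0.17 to 0.86. The muscle probe was at 4.29, a difference that rests on low intensities. Its level in control fish 5, 0.242, lay within the 0.209 to 1.00 of the HFD fish, above the 0.00197 to 0.0634 of control fish 1 to 4. The part of these cell types in the density difference was not tested.

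**Figure D5:**
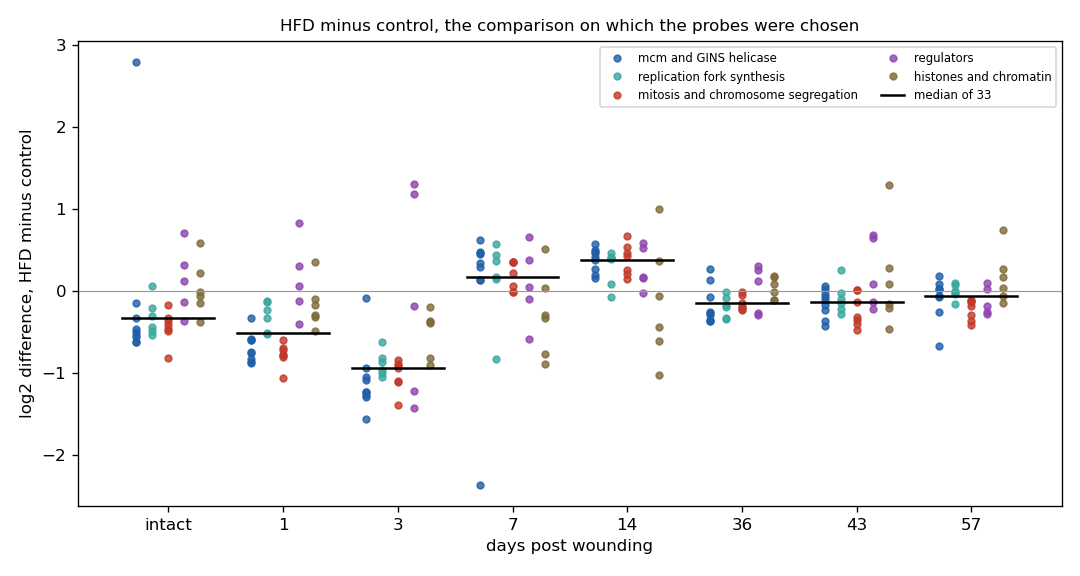
HFD minus control difference of each of the 33 probes by day as log2 differences, coloured by role, with the median of the 33 as a black bar. This is the comparison on which the probes were chosen, so the low level at 3 dpw (median -0.93) is a description. The medians were 0.17 at 7 dpw and 0.39 at 14 dpw.

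Between fish of the same group most probes of DNA replication varied together. The mean of each group was subtracted first. Over 78 fish in 16 groups the correlation with PCNA was 0.82 at the median of 12 other replication probes (Spearman 0.77), with mcm5 and polymerase alpha B highest at 0.88. PSF3 and polymerase delta-4, set aside after their values were seen, are not among these 12 and were at 0.06 and 0.27. The correlation was 0.69 at the median of the 7 mitotic probes (Spearman 0.66), with ESCO1 at 0.75 and ube2c at 0.54. Over all 12545 other probes the median was 0.02, and 1.01% were above 0.6, as were 16 of the 32 other members. The 6 histone and chromatin probes had a median of -0.08. Within 0 to 14 dpw (48 fish) and within 36 to 57 dpw (30 fish) the replication probes had medians of 0.85 and 0.76, and after the slides too were subtracted 0.86. The values of 1 array share their RNA and scaling, and these correlations are descriptions.

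Outside the members the list held 4 probes of the wider pathway that had been sought by name. Ribonucleoside-diphosphate reductase subunit M2, which makes the building blocks of DNA, differed from intact skin by -1.26 at 1 dpw (SE 0.17, adjusted p = 3.86e-09), -0.07 at 3 dpw (SE 0.17, adjusted p = 0.736) and 1.26 at 7 dpw (SE 0.17, adjusted p = 5.93e-09). Thymidylate synthase, which makes thymidylate, was at -1.84 at 1 dpw (SE 0.20, adjusted p = 2.4e-12), -1.29 at 3 dpw (SE 0.20, adjusted p = 6.54e-08) and 0.78 at 7 dpw (SE 0.20, adjusted p = 0.000552), the last under the fold. Of 2 probes for polo-like kinase 3, 1 was lower at 7 dpw, at -1.02 (SE 0.18, adjusted p = 2.19e-06), and the other did not pass. The 10 probes outside the members whose values followed the mean of the 12 DNA replication probes most closely over 78 fish had correlations of 0.88 to 0.91. Group means were not subtracted here, so these correlations include the differences between groups, unlike those with PCNA above. Of the 10 probes 5 carry a name in the list: dihydrofolate reductase at 0.91, chromosome transmission fidelity protein 8 at 0.91, PCNA-associated factor at 0.90, HGV2 at 0.90 and the reductase subunit M2 at 0.88.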

How the data were processed

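Skin of 78 Atlantic salmon (16 groups) was measured on 79 single-colour Agilent arrays of 14841 probes, and the repeat arrays of control fish 3 at 57 dpw were averaged. The deposited files hold the scanner's spot intensity as background-corrected and processed by the authors with Feature Extraction 12.0.1.1. Here log2 of the processed intensity minus the 75th percentile of each array was used, without control and outlier spots. Fish with a probe well above background were counted over all compared groups together. A probe was tested if they were at least as many as the fish on the smaller side of the comparison. The test was limma 3.58.1 (R 4.3.3) on 1 fit of all groups, with Benjamini-Hochberg adjustment over all probes tested. A call required a log2 difference beyond 0.8 and an adjusted p under 0.05. In simulated data with known changes at 7 dpw, 94% of the changes of 2 log2 units and 69% of those of 1 unit were called, of 100 each among 12967 probes.

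The authors' value table, also deposited, is scaled to a constant mean per array (array medians 76 to 136, correlation with the scanner's log2 values 0.952 to 0.9995) and served as an alternative. Columns of the study's own fold changes and p-values were not used. The members and the gene lists were chosen with earlier results of these data known. All members were taken. Values of every fish are given for PCNA, mcm2, mcm5, cdk1, ube2c, cdkn1c, H2A and PSF3 and for the members with the largest rise and fall on a day, and other members by range and counts. Gene names come from the study's list, and probes outside it are unnamed here. Alternatives were other scalings, background corrections, filters, blocks for slide and fish number, and each fish left out. The number of fish limits the precision, and p-values measure the spread between fish of 1 tank per density.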

Additional observations from a re-analysis of the deposited data

Results flagged for a closer look

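For 15 probes, 150 sets of values from the same groups of 4 or 5 fish were examined. Of these sets 4 held a fish whose gap to the next was larger than Dixon's limit for the group. Chance gives about 1 in 20 independent sets, and these sets share fish and are not independent. Mcm2-a in control intact skin had its highest value at 2.18 in fish 6, against 1.72 in the next fish. Mcm6-B in control wounds of 7 dpw had its lowest at -1.44 in fish 5, against 0.21 in the next. Pim-1 in HFD wounds of 7 dpw had its lowest at -1.53 in fish 3, against -0.92 in the next. H2A in HFD wounds of 3 dpw had its highest at 0.63 in fish 3, against 0.16 in the next. The same 15 probes were also looked at by density at 1, 3, 7 and 14 dpw. For 2 of them the fish of the 2 densities lay on opposite sides of their intact means at 1 of these days. The probes had been chosen on HFD against control, and the share over all probes was not computed. PSF3 at 7 dpw differed from intact skin by -0.99 in HFD and by 4.16 in control, and ESCO1 at 14 dpw by 1.06 in HFD and by -0.18 in control. Without HFD intact fish 3 the HFD value of PSF3 was -0.06, with 3 of 5 fish above the intact mean and 2 below, so that the opposite sides were gone, and that of ESCO1 was 0.86 with 5 of 5 above. These differences between densities were not tested.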

How the results depend on the processing

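Of 10428 values of single members under alternative settings, 10030 kept their side of the threshold, 137 lost the call, 255 gained it and 6 reversed. A change of sign was counted as reversed only where the member was called in either setting, so uncalled values that crossed 0 are among the 10030. The settings include the fits that each left out 1 fish, which share nearly all fish with the main fit. Values uncalled in both settings count as kept, so the size of the 10030 says little. Of the 137 lost calls 68 came from settings that left out no fish or slide. Scaling by array means (or the authors' table) moved the counts against intact skin, mean of both densities: at 7 dpw 24 (24) higher and 1 (1) lower, at 14 dpw 21 (21) higher and 1 (1) lower, and at 36, 43 and 57 dpw 25 (27), 24 (24) and 25 (25) called. The median of all probes shifted too, by 0.63 (0.59) at 7 dpw and 0.55 (0.53) at 14 dpw. At 36, 43 and 57 dpw it shifted by 0.89 (1.14), 0.81 (1.15) and 0.72 (1.11). Between 3 and 7 dpw 1 (1) was lower and between 36 and 43 dpw 1 (1) was called. In control 4 (3) were lower at 3 dpw, 20 (21) higher at 7 dpw and 6 (6) higher at 14 dpw. At most 4 (3) of the 7 mitotic probes were thus lower in control at 3 dpw. At 36 dpw mcm3 reversed to 0.84 (0.89), polymerase delta-4 to 0.88 (0.88), and, in the authors' table, mcm2-b to 0.82 and mcm5 to 0.83. With normexp 1, 1 and 4 were called at 36, 43 and 57 dpw, 1 was lower between 3 and 7 dpw, and 3 and 0 were higher in control at 7 and 14 dpw. Quantile normalization and slide as a fixed block each gave 2 higher in control at 14 dpw. Without slide 2, chosen after seeing the data, 4 were called at 57 dpw. The fixed slide block gave no value from 36 dpw against intact skin.

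Fish shared only a number: 10 of 35 same-numbered pairs had correlated deviations above 0.1 (median -0.06). With fish number as a replicate block 1 was lower at 7 dpw, and in control 12 were lower at 1 dpw and 0 higher at 7 and 14 dpw. Control intact fish were numbered 5 to 8 and control wounds 1 to 5, so that only number 5 was common to both. Nothing is read from these control counts.

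Leaving out each fish gave, against intact skin, 21 to 24 lower and 4 to 4 higher at 1 dpw, 12 to 13 lower and 3 to 3 higher at 3 dpw, 11 to 16 higher and 2 to 3 lower at 7 dpw, 4 to 6 higher and 2 to 2 lower at 14 dpw, and 2 to 3, 3 to 5 and 5 to 7 called at 36, 43 and 57 dpw. The steps gave 9 to 14 higher and 3 to 4 lower (1 to 3 dpw), 17 to 23 higher and 1 to 3 lower (3 to 7 dpw), 1 to 1 (7 to 14 dpw), 0 to 1 (36 to 43 dpw) and 0 to 0 (43 to 57 dpw). HFD gave 21 to 23 lower at 1 dpw, 13 to 19 lower at 3 dpw, 17 to 23 higher at 7 dpw and 11 to 20 at 14 dpw (11 without HFD intact fish 3), and control 19 to 22, 7 to 11 (7 without fish 5), 3 to 9 and 1 to 2. HFD minus control at 3 dpw gave 16 to 24 lower. Counts moved by over 1.5 times also without control intact fish 6 (43 dpw, and control at 7 and 14 dpw), control 43 dpw fish 1 (43 dpw and its step), control 3 dpw fish 3 (lower from 3 to 7 dpw), control 7 dpw fish 1, 3 and 4 (control at 7 dpw) and control 14 dpw fish 5 (control at 14 dpw).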
